A study of Mus musculus with 6 samples.

Results

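The cytosolic ribosomal protein genes of MA-10 cells, a line from a mouse Leydig cell tumour, were followed through a knockdown of the MEF2 transcription factors. Members were chosen by symbol alone: gene symbols of the deposited annotation that begin with Rpl or Rps and go on with the number or letter of a cytosolic ribosomal protein, without the Rps6 kinase genes. One probe set stood for each symbol, the one with the highest mean over the 6 arrays. The choice found 83 genes of 22083 tested, of which 50 carry large-subunit and 33 small-subunit symbols. Of these, 7 are paralogs of a main gene (Rpl10l, Rpl22l1, Rpl39l, Rpl3l, Rpl7l1, Rps27l and Rps4l), which leaves 76 main genes. The file writes Rps4l, a transcribed pseudogene in RefSeq, as Rps4y2 and Rps3a1 as Rps3a. Ribosomal protein genes that the symbols did not match are described apart (Rpl32, Rpl36al, Fau and Rack1).

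All cells were grown in medium with horse serum. In 3 samples MEF2A and MEF2D were targeted together by small interfering RNA, a group named siRNA MEF2, and 3 samples given a scrambled sequence form the group named siRNA control. Total RNA was taken after 48 h. Each sample was hybridised to 1 biotin-labelled Affymetrix whole-transcript array. MA-10 is 1 tumour line, and the labels do not say whether the 3 samples of a group were separate cultures, so the spread behind each p-value is that of these samples and may be only technical.

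A ribosome joins a small subunit, which reads the mRNA, to a large subunit, which forms the peptide bond, and each subunit holds ribosomal RNA and many proteins. Most of the proteins are made in equal numbers, since each ribosome holds a single copy of nearly all of them, the stalk proteins Rplp1 and Rplp2 aside. Their mRNAs begin with a run of pyrimidines, the terminal oligopyrimidine (TOP) motif, through which mTOR signalling and Larp1 control their translation, and they are among the most abundant mRNAs of growing cells. MEF2 factors, best known from muscle, also act on genes of steroid hormone synthesis in Leydig cells.

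The knockdown was checked first. Mef2a signals were 10.80, 10.80 and 10.78 in the control arrays and 9.80, 10.12 and 10.10 in the siRNA MEF2 arrays on the log2 scale, and Mef2d signals were 11.22, 11.31 and 11.22 against 10.60, 10.84 and 10.92. Both targets fell without overlap, Mef2a by 0.78 (limma adjusted p = 8.3e-05) and Mef2d by 0.46 (limma adjusted p = 0.00204). Median log2 signals over all genes lay between 7.82 and 7.88 on the 6 arrays, and arrays of a group correlated at 0.997 to 0.999 across genes. Of the 8 Leydig cell markers, 6 were above the 90th percentile of the negative control probe sets on all 6 arrays, Star on 3 and Hsd3b1 on none. All 6 germ cell and all 4 macrophage markers were above it on no array. The Sertoli cell markers Sox9 and Rhox5 and the endothelial marker Cdh5 were above it on all 6. Of these, Rhox5 rose by 0.32 and Cdh5 fell by 0.42 (limma adjusted p = 0.00431 and 0.00105). Among markers below that level, Ddx4 and Prm1 of germ cells were called higher by 0.40 and 0.25 (limma adjusted p = 0.00779 and 0.0145), and of the macrophage markers Cd68 fell by 0.54 and Ptprc rose by 0.20 (limma adjusted p = 0.00065 and 0.0434). The endothelial marker Tek was called higher by 0.21 (limma adjusted p = 0.0404). Of the 8 Leydig cell markers 3 were called higher and 4 lower, beside 9.03% and 11.7% of all genes. Their differences ran from -0.91 for Star to 0.45 for Lhcgr (limma adjusted p = 0.000282 and 0.00386). The part of these genes in the results was not tested.

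Ribosomal protein mRNAs were slightly higher after the knockdown, and most single differences did not pass the test. Of 83 genes, 11 were called higher (13.3%) and 0 lower, where a call is a limma adjusted p under 0.05 over all 22083 genes. The background was 9.03% of all genes called higher and 11.7% called lower. At an unadjusted p under 0.05 the counts were 29 higher and 0 lower, beside 4411 higher and 3701 lower of all 22083 genes. The median log2 difference, siRNA MEF2 minus siRNA control, was 0.11 for the 83 genes, with quartiles of 0.059 and 0.16, beside 0.038 for all genes. It was above 0 in 79 of the 83 genes (95.2%) and in 60.4% of all genes. In 45 genes every siRNA MEF2 array lay above every control array, beside 22.8% of all genes, and in 1 gene, Rpl7l1, every one lay below, beside 18% of all genes. Fitted differences ran from -0.10 for Rpl7l1 to 0.24 for Rpl23a, so the 11 called genes rose by only 1.14 to 1.18 times. The median SE of the 83 differences was 0.058. Calls in either direction made up 20.7% of all genes.

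**Figure D1:**
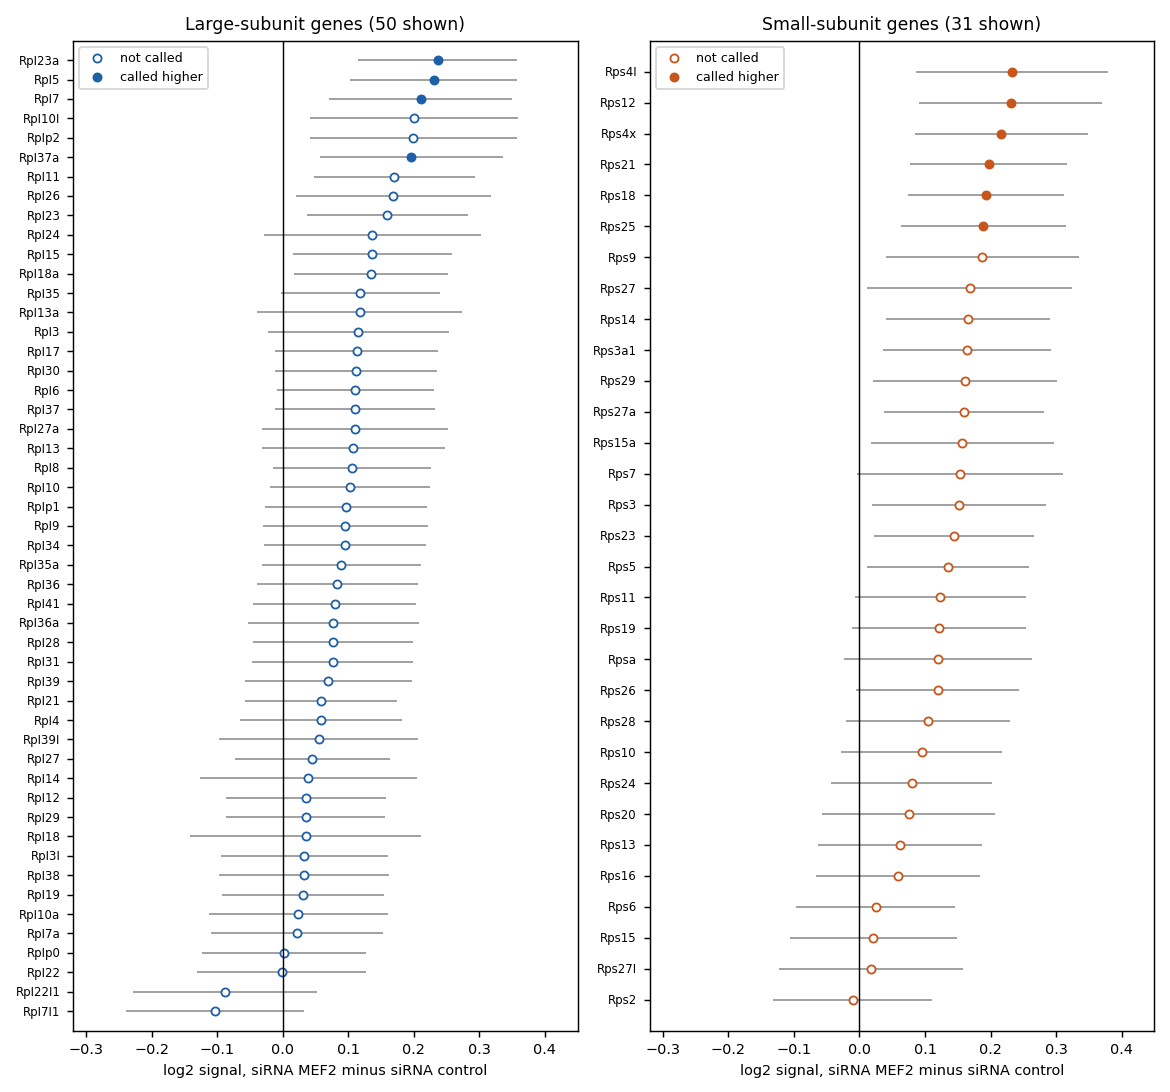
Log2 difference of 81 of the 83 ribosomal protein genes, siRNA MEF2 minus siRNA control, with its 95% confidence interval from the limma fit (3 arrays a group); filled points passed an adjusted p of 0.05 over all genes. Points of 77 of these 81 genes lie right of 0, with Rpl23a highest at 0.24 and Rpl7l1 lowest at -0.10.

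Among the large-subunit genes 4 were called higher. Rpl23a, whose protein sits at the exit of the peptide tunnel, had signals of 12.07, 12.05 and 12.05 in the control arrays and 12.34, 12.24 and 12.30 in the siRNA MEF2 arrays. The control arrays lay close together and all 3 siRNA MEF2 arrays lay above them. Its difference was 0.24 ± 0.056 (SE, n = 3 a group, limma adjusted p = 0.0125), a 1.18-fold rise. Rpl5, which with Rpl11 and a small ribosomal RNA binds Mdm2 and holds back the breakdown of p53, was at 12.44, 12.39 and 12.42 in the controls and at 12.61, 12.59 and 12.73 after the knockdown. Again no siRNA MEF2 array reached down to the controls, and the difference was 0.23 ± 0.059 (limma adjusted p = 0.0179). Rpl7 was at 11.34, 11.20 and 11.27 against 11.52, 11.39 and 11.55, where siRNA MEF2 replicate 2 came close to the highest control. It rose by 0.21 on the log2 scale (limma adjusted p = 0.0374). Rpl37a, a small zinc-finger protein, was at 11.99, 11.93 and 11.96 against 12.19, 12.04 and 12.24. Here too replicate 2 was the lowest of the siRNA MEF2 arrays, and the rise of 0.20 only just passed (limma adjusted p = 0.0489).

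Among the small-subunit genes 7 were called higher. Rps12 was at 11.35, 11.33 and 11.42 in the controls and at 11.57, 11.52 and 11.71 in the siRNA MEF2 arrays, without overlap, a difference of 0.23 ± 0.064 (limma adjusted p = 0.0259). Rps4x, the X-linked gene of a small-subunit protein, was at 11.25, 11.29 and 11.35 against 11.54, 11.43 and 11.57. All 3 siRNA MEF2 arrays were above the controls and the difference was 0.22 ± 0.060 (limma adjusted p = 0.0265). Rps21 was at 10.11, 10.16 and 10.12 against 10.38, 10.30 and 10.31, groups that were tight and well apart, with a difference of 0.20 (limma adjusted p = 0.0265). Rps18 and Rps25, named after their values were seen, rose by 0.19 each (limma adjusted p = 0.0281 and 0.0385). Rps25 is required for initiation on some viral mRNAs. The paralog Rps4l was also called, at 7.43, 7.20 and 7.32 against 7.59, 7.56 and 7.49 (difference 0.23, limma adjusted p = 0.031). Its probe set lay above the median of the negative controls, which was 7.16 to 7.53, on only 3 of the 6 arrays, so its value is read near background.

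Just past the threshold on the other side was Rpl11. It had the smallest control SD of the 83 genes, with signals at 12.80, 12.80 and 12.80, with siRNA MEF2 arrays at 13.04, 12.93 and 12.94. Its difference of 0.17 ± 0.057 did not pass (limma adjusted p = 0.0512). The partner of the Rpl5 and Rpl11 complex, Mdm2, was at 9.91 in all 3 controls and at 9.78, 9.81 and 9.68 after the knockdown, a difference of -0.15 that did not pass (limma adjusted p = 0.076). Trp53, the gene of p53, differed by -0.023 with overlapping groups (limma adjusted p = 0.782).

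The genes of the stalk proteins Rplp0, Rplp1 and Rplp2, which call elongation factors to the large subunit, were not called. They were not tested against each other. Rplp0 was at 13.63, 13.53 and 13.62 in the controls and 13.62, 13.55 and 13.61 in the siRNA MEF2 arrays. The groups overlapped entirely, with a difference of 0.0021 and a 95% interval of -0.12 to 0.13. The other probe sets of Rplp0 differed by 0.029, 0.041 and 0.042. Rplp1 differed by 0.096 without overlap (limma adjusted p = 0.235), and its second, dimmer probe set by 0.053. Rplp2 differed by 0.20 with overlap (limma adjusted p = 0.0694), and its only probe set exceeded the 90th percentile of the negative controls on no array.

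Rpl5, which also binds Mdm2, was called higher, as described above. The following genes, known for roles beside the ribosome or from human disease, had differences above 0 that did not pass the test. Rps3, which also acts in DNA repair, differed by 0.15 and Rps27a, made as a fusion with ubiquitin, by 0.16 (limma adjusted p = 0.0937 and 0.062). Rps14, whose loss is part of a human myelodysplastic syndrome, differed by 0.17, and Rps19, the gene most often mutated in Diamond-Blackfan anaemia, by 0.12 (limma adjusted p = 0.059 and 0.169). In Rps3, Rps27a, Rps14 and Rps19 every siRNA MEF2 array lay above every control array. Rpsa, also known as the laminin receptor precursor, differed by 0.12 and Rpl13a, a translational silencer in human myeloid cells, by 0.12, both with overlapping groups (limma adjusted p = 0.205 and 0.253). Rpl10, which joins late and is needed before the subunits meet, differed by 0.10 without overlap (limma adjusted p = 0.204).

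Several of the brightest probe sets stayed near 0. Rps6, the protein phosphorylated by S6 kinases, was at 13.78, 13.70 and 13.70 in the controls and at 13.78, 13.71 and 13.76 in the siRNA MEF2 arrays. Its difference was 0.025 with a 95% interval of -0.097 to 0.15. Rpl12 and Rpl39 differed by 0.036 and 0.069 (limma adjusted p = 0.667 and 0.407). Rps2, named after its values were seen, was at 13.71, 13.69 and 13.77 against 13.76, 13.69 and 13.69, a difference of -0.011. In all 4 genes the groups overlapped. The upper ends of these intervals, 0.15 for Rps6 and 0.11 for Rps2, lie below the fitted differences of all 11 called genes; no test of one gene against another was run.

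The paralogs went in several directions. Rpl7l1 was at 11.84, 11.81 and 11.86 in the controls and 11.81, 11.77 and 11.62 in the siRNA MEF2 arrays, all below the controls by a narrow margin (difference -0.10, limma adjusted p = 0.244), while Rpl7 was called higher. Rpl22l1 differed by -0.088 and Rpl22, which in mouse holds down the expression of that paralog, by -0.0015, both with overlap (limma adjusted p = 0.335 and 0.987). Rps27l, a p53 target, differed by 0.018 and its main gene Rps27 by 0.17 (limma adjusted p = 0.86 and 0.112). The germ-cell paralogs Rpl10l and Rpl39l and the muscle paralog Rpl3l had probe sets below the median of the negative controls on all 6 arrays, with means of 6.72, 5.50 and 6.32. At that signal their differences of 0.20, 0.055 and 0.033 say little about these mRNAs. Of their main genes, Rpl3 differed by 0.12 with overlap (limma adjusted p = 0.207).

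Some ribosomal proteins are encoded by genes whose symbols in the file the rule did not match. Rack1, listed under the older symbol Gnb2l1, is a scaffold of the small subunit and was at 12.51, 12.51 and 12.58 in the controls and 12.79, 12.67 and 12.76 after the knockdown. It was called higher without overlap, by 0.20 ± 0.058 (limma adjusted p = 0.03). Fau, a fusion of a ubiquitin-like protein with a ribosomal protein, differed by 0.066 with overlap (limma adjusted p = 0.421). Rpl32, whose symbol is written doubly in the file, differed by 0.074 and Rpl36al by 0.012 (limma adjusted p = 0.35 and 0.891).

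The 83 genes had 406 probe sets between them, and these largely repeated each gene's own value. Mouse ribosomal protein genes have many processed pseudogenes, so probe sets named for a gene can read the gene, its copies or both, and they are not independent measurements. Of the 406, 381 differed above 0, and in 74 of 83 genes all of them did. In 13 of the 406 the 6 values repeated those of another probe set of the gene. Among the 32 genes with 5 or more probe sets, the median range of the difference within a gene was 0.046, and the widest was 0.15 in Rps12. There, 1 dim probe set lay at 0.093 and the others between 0.21 and 0.25. All 14 probe sets of Rpl23a lay between 0.18 and 0.24, whereas the 18 of Rps2 lay between -0.021 and 0.012 and the 28 of Rpl29 between 0.015 and 0.064. Rps21 is the exception among the called genes. Its second probe set, with a mean of 8.69, differed by -0.031 while the chosen one differed by 0.20.

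**Figure D2:**
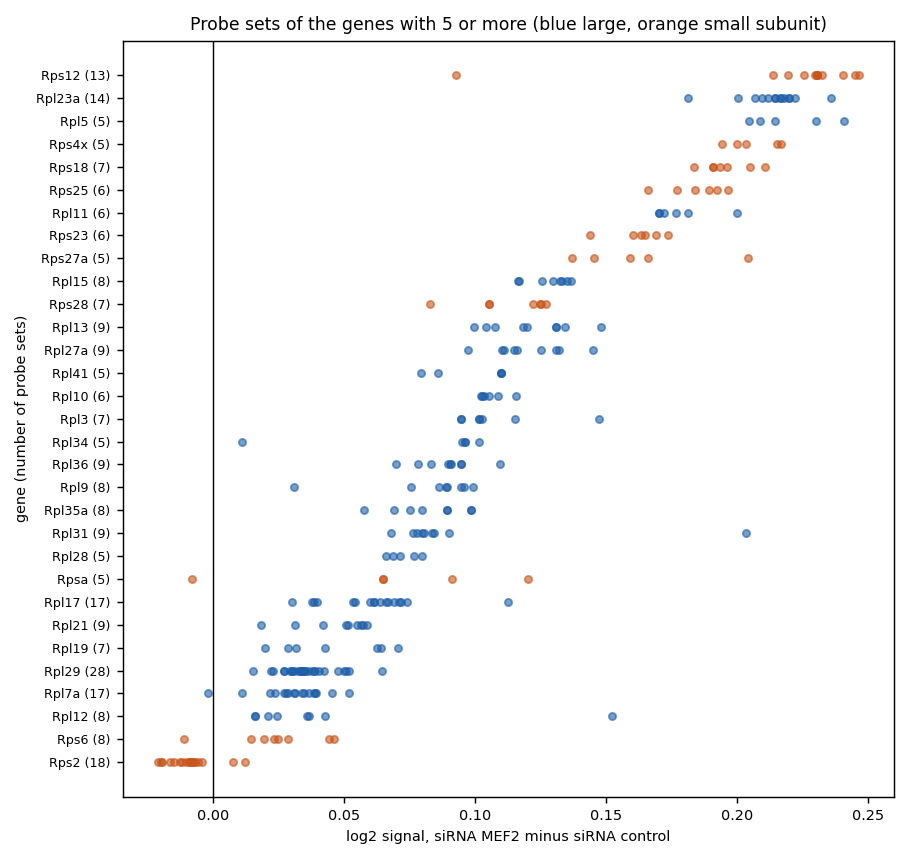
Log2 difference, siRNA MEF2 minus siRNA control, of every probe set of 31 of the 32 ribosomal protein genes with 5 or more, ordered by the gene's median. The 18 probe sets of Rps2 sit around 0 and the 14 of Rpl23a at 0.18 to 0.24; the point of Rps12 at 0.093 is its dimmest probe set.

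Small-subunit genes had the higher median. Calls were made for 7 of 33 small-subunit genes (21.2%) and 4 of 50 large-subunit genes (8%), beside 9.03% of all genes called higher. The order of these counts was turned with median centring (0 small- and 1 large-subunit gene) and without control replicate 1 (1 and 4), control replicate 2 (0 and 1), siRNA MEF2 replicate 1 (1 and 2) or siRNA MEF2 replicate 3 (2 and 3). With the deposited values the median differences were 0.15 for small- and 0.095 for large-subunit genes. Every siRNA MEF2 array lay above every control array in 22 of 33 and 23 of 50, beside 22.8% of all genes. The order held on each siRNA MEF2 array. Relative to the control mean, the median small-subunit gene stood at 0.18, 0.080 and 0.18 on siRNA MEF2 replicates 1, 2 and 3, and the median large-subunit gene at 0.13, 0.035 and 0.11. Small-subunit probe sets were also dimmer, with a median signal of 11.79 against 12.50. Split at a signal of 12, without the paralogs, the medians were 0.16 for 18 small-subunit and 0.11 for 10 large-subunit genes below it. At or above it they were 0.11 for 13 small-subunit and 0.095 for 35 large-subunit genes. These are descriptions of the gene lists, and the subunits were not tested against each other.

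**Figure D3:**
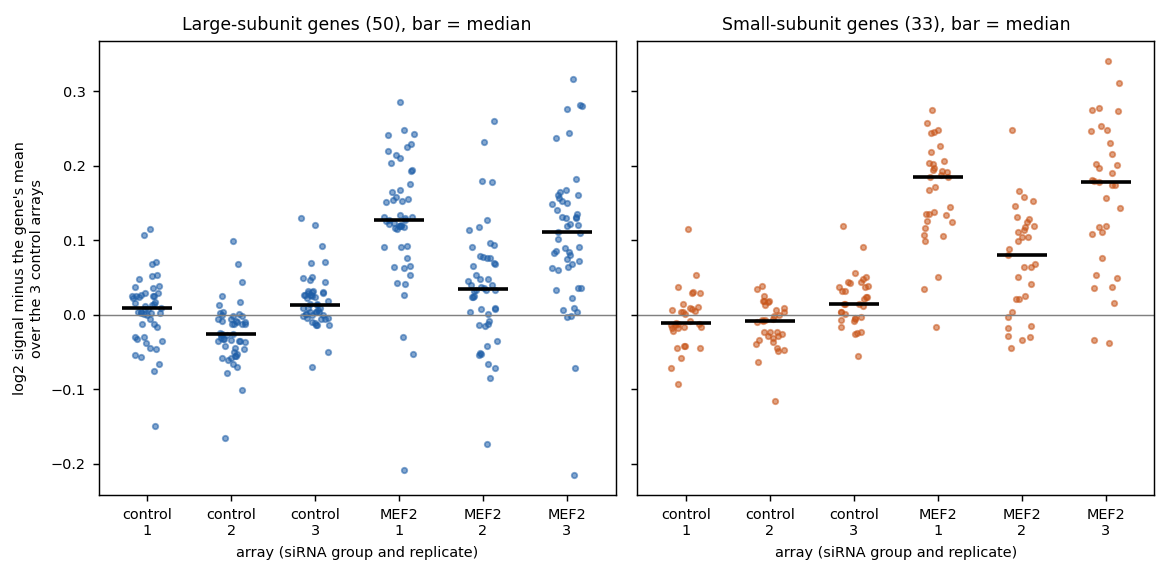
Log2 signal of each ribosomal protein gene on each of the 6 arrays minus that gene's mean over the 3 control arrays; points are genes and bars are medians. Medians of the siRNA MEF2 arrays are 0.13, 0.035 and 0.11 for the large and 0.18, 0.080 and 0.18 for the small subunit, with replicate 2 lowest in both.

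For these genes siRNA MEF2 replicate 2 stood apart from the other siRNA MEF2 arrays. Over all 83, the median gene stood at 0.14, 0.046 and 0.13 above its control mean on siRNA MEF2 replicates 1, 2 and 3, and at 0.0038, -0.023 and 0.015 on the control arrays. Replicate 2 was the lowest siRNA MEF2 array for 69 of 83 genes, and 47 genes there exceeded all controls, beside 73 and 69 on replicates 1 and 3. Of all 22083 genes, 10065, 9144 and 8707 exceeded all controls on siRNA MEF2 replicates 1, 2 and 3. Over all genes the same 3 arrays stood at 0.044, 0.028 and 0.023. Replicate 2 was also lowest in mitochondrial ribosomal protein genes (0.016, -0.14 and -0.082) and translation initiation factors (-0.041, -0.11 and -0.081). The same held for genes of ribosome assembly (-0.027, -0.087 and -0.042). It was not lowest in the elongation factor, RNA polymerase I or mTOR lists, nor in the other genes of the top decile. The knockdown of Mef2a was about as deep on replicates 2 and 3, at 10.12 and 10.10, and deepest on replicate 1, at 9.80. Without replicate 2 the median was 0.13 with 10 calls, and without replicate 1 it was 0.087 with 3 calls. Of all genes, 3.69% and 6.85% were called higher in these 2 settings.

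The genes lie at the bright end of the arrays, where other genes mostly went the opposite way. Signal here describes probe sets and does not rank mRNAs. By mean signal, 70 of 83 ribosomal protein genes were in the top decile of all genes. The other 2139 genes of that decile had a median difference of -0.073, with 4.02% called higher, 23.5% called lower and 31.3% above 0. The 70 ribosomal protein genes had a median of 0.11, with 9 called higher, 0 lower and 68 above 0. At signals of 13 or more the medians were 0.064 for 20 ribosomal protein genes and -0.065 for the other 115. Within the family, differences were smaller at higher signal, with a Pearson r of -0.380 and a Spearman rho of -0.492 across the 76 main genes and of -0.132 and -0.363 across all 83. That is a description across genes which share the same 6 arrays and the same probe scale. Median differences were 0.16 in the 28 main genes below a signal of 12, 0.11 between 12 and 13 and 0.064 at 13 or more. The part of signal in the differences between members was not tested.

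**Figure D4:**
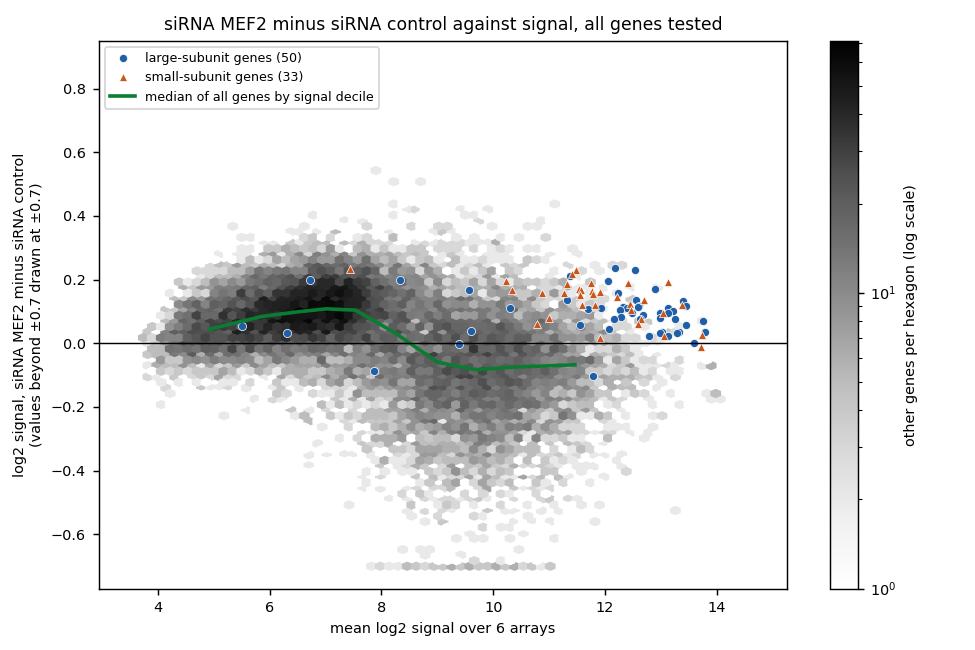
Log2 difference against mean log2 signal for all genes tested (grey hexagons, darker for more genes), with large-subunit genes as circles, small-subunit genes as triangles and the median by decile of signal as a line. That line lies below 0 at the bright end, at -0.068 in the top decile, while ribosomal protein genes there have a median of 0.11.

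How many genes passed depended on how the arrays were put on one scale. With the deposited values the count was 11. Centring each array on its median, which moved the median difference of all genes from 0.038 to -0.011, left only Rpl23a called and a family median of 0.060. Quantile normalization and cyclic loess, which act along the signal range, gave 28 and 32 calls with medians of 0.16 and 0.17. Without control replicate 2 only Rpl23a was called, and without any other single array the count was 3 to 10. The share of all genes called higher was 3.79% with median centring, 6.19% with quantile normalization and 5.26% with cyclic loess. It was 4.16% without control replicate 2 and 3.69% to 9.39% without any other single array. No ribosomal protein gene was called lower under any of the 15 alternatives. Rpl23a was called in 14 of them, Rpl5 in 11, Rps12 in 10, Rps4x, Rpl7 and Rps18 in 9 and Rps21, Rpl37a and Rps25 in 7, and Rps4l in 7 of the 14 that tested it. Because the arrays measure shares of the labelled RNA, a shift common to most mRNAs could not be seen, and less RNA per cell cannot be told apart from fewer cells.

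**Figure D5:**
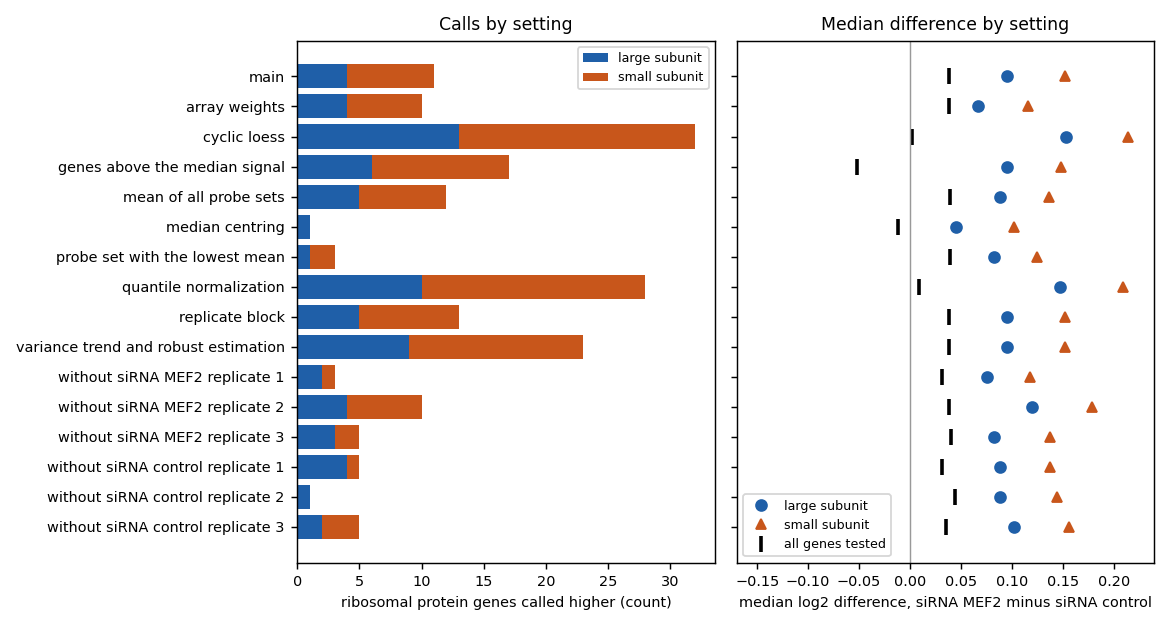
Ribosomal protein genes called higher (left) and median log2 difference, siRNA MEF2 minus siRNA control (right), with the values as deposited (main) and under each alternative. Calls run from 1 to 32, while the median of the small subunit lies right of that of the large subunit in every setting.

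Promoter sequence was set beside these values for the 63 of 83 genes that have an entry in a RefSeq promoter table of the assembly GRCm38.p6. The windows below show the pyrimidine content around the annotated start, where a TOP motif would lie, in some genes called higher and in bright genes near 0. Each covers the 20 bases before and the 20 bases from the start, 5′ to 3′ on the gene's strand, with the longest run of C and T in capitals. The capitals span the annotated start in Rps18 and Rps6 only; in the other windows they lie before or after it. Annotated starts can miss the main start used in these cells. Rpl5 lies at chr5:107900508-107900547 (+), Rps12 at chr10:23787190-23787229 (-), Rps18 at chr17:33955646-33955685 (-), Rps25 at chr9:44407694-44407733 (+), Rps4x at chrX:102189372-102189411 (-), Rps6 at chr4:86857348-86857387 (-), Rplp0 at chr5:115559447-115559486 (+) and Rps2 at chr17:24720043-24720082 (+).
Rpl5: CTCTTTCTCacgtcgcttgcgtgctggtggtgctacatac
Rps12: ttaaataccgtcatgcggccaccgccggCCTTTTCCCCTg
Rps18: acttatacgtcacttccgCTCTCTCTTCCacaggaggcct
Rps25: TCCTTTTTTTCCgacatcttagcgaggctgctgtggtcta
Rps4x: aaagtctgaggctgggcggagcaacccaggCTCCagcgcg
Rps6: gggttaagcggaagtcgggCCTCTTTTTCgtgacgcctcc
Rplp0: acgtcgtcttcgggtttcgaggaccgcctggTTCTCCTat
Rps2: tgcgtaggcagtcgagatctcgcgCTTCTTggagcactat

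Pyrimidine runs of 8 or more bases were in the 40-base window of 30 of the 63 genes (47.6%) and in 18.4% of all 27025 genes of the table. Rps12, Rps18 and Rps25, called higher, have runs of 11, 11 and 12 bases, and Rps6, near 0, has 10, whereas Rps4x, called higher, has 4. Rpl37a and Rps21, also called higher but not printed above, have runs of 5 and at most 7 bases. Such a run was in 4 of the 7 called genes that have a promoter entry and in 26 of 56 not called. Across the whole 300 bases, from 250 before to 50 after the start, the letters CTTTCC on either strand were found in 33 of 63 genes (52.4%) and in 29.3% of all. The letters CCGGAAG, the core recognised by ETS-family factors, were found on either strand in 26 genes (41.3%) and in 9.93% of all. The 2 motifs can share their CC. The MEF2 element was matched in 1 of 63 genes, the muscle paralog Rpl3l, and in 3.7% of all. A match describes letters in the window, and its absence says only that these letters are not there.

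Genes of the translation machinery around the ribosome had mixed values. Among 11 elongation and release factors 1 was called higher and 3 lower, with a median difference of -0.057. Eef1b2, the exchange factor of elongation factor 1, was at 12.08, 12.06 and 12.04 in the controls and 12.33, 12.23 and 12.36 after the knockdown. It was called higher without overlap, by 0.25 (limma adjusted p = 0.0114), while Eif5a, Etf1 and Gspt1 fell by 0.41, 0.29 and 0.21. Named after their values were seen, Eef1a1 and Eef2, which bring tRNA and move the ribosome on, and Pabpc1, which binds poly(A) tails, did not pass the test. Eef1a1 differed by -0.061, Eef2 by -0.057 and Pabpc1 by 0.096, the last without overlap. Of 37 initiation factors 2 were called higher (Eif4a2 and Eif4g3) and 4 lower (Eif3f, Eif2s3x, Eif5b and Eif4h), with a median of -0.080.

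Genes that build ribosomes had medians below 0, as did all genes of similar signal: in decile 9 by signal, which holds the median signal of both lists, the median was -0.075 with 24.9% called lower. Of 41 genes of ribosome assembly and rRNA processing 0 were called higher and 3 lower, with a median of -0.049. Mrto4, which helps form the stalk on the large subunit, fell by 0.35, from 9.84, 9.79 and 9.92 to 9.55, 9.36 and 9.58 (limma adjusted p = 0.00499), and Gtpbp4 and Utp18 fell by 0.23 and 0.21. Of 12 genes of RNA polymerase I and its factors, which make the large rRNAs, 0 were called higher and 2 lower. Rrn3, the factor that brings the polymerase to rRNA genes, was at 11.33, 11.52 and 11.41 in the controls and at 10.998, 10.92 and 10.89 in the siRNA MEF2 arrays, a fall of 0.48 (limma adjusted p = 0.000453). Taf1b fell by 0.24. The median of the 12 was -0.085.

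In the list of mTOR signalling and TOP mRNA control, 1 of 22 genes was called higher and 7 lower, with a median of -0.0011. Mtor rose by 0.17 (limma adjusted p = 0.047). Rps6kb1, the kinase of Rps6, fell by 0.31, the growth regulator Myc by 0.33 and Rps6ka3 by 0.38 (limma adjusted p = 0.00756, 0.0032 and 0.00224). The activators of mTOR on lysosomes Rragc, Lamtor1 and Rheb fell by 0.29, 0.32 and 0.28, although the dimmest probe set of Rragc differed by 0.20 the other way, and Eif4ebp2, a repressor of cap-dependent initiation, by 0.21. Larp1, which binds TOP mRNAs, differed by -0.18 without overlap and did not pass (limma adjusted p = 0.065). Ribosomal proteins of mitochondria, a separate set of 77 genes, had 1 called higher (Mrps16, by 0.24) and 11 lower, with a median of -0.067. Mrpl40 and Mrps23 among them fell by 0.32 and 0.27 (limma adjusted p = 0.00399 and 0.00644). All of these counts stand beside the same background of 9.03% and 11.7%, but that background changed with signal. In decile 8, which holds the median signal of the mitochondrial set, 4.57% were called higher and 26% lower, with a median of -0.083. The shares were 4.48% and 24.9% in decile 9, which holds that of the mTOR list. In decile 10, which holds those of the elongation and initiation factors, they were 4.3% and 22.7%. No test of one list against another was run.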

How the data were processed

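The authors deposited log2 signals for each probe set on each array, made by RMA at the gene level per the file headers. RMA and Partek are the tools in the submitters' processing notes. The array design is not given in the sources used. The 35557 probe sets were named through the deposited symbols and accessions and a RefSeq gene table (GRCm38.p6, names only), which gave 22083 genes, each represented by its probe set with the highest mean. Two-sided tests used limma 3.58.1 (lmFit, eBayes; R 4.3.3), with Benjamini-Hochberg adjustment over all genes, no covariates and no filter on low signal; the script was tested on simulated data. SD and SE refer to 3 arrays a group. The precision is limited by the number of arrays, which have no read depth. Groups and replicate numbers came from sample titles. The members, the gene lists and the naming rule were chosen with earlier results of these data known. That rule took up to 8 called genes with the largest rise, the 3 brightest and 3 dimmest members, paralogs with their main genes, a fixed set of members, and up to 4 called genes of each list; genes outside it, other than the checks of knockdown and cell type, were named after their values were seen. The 15 alternatives were 3 other scalings, a filter on signal, 2 other choices of probe set, 2 other variance settings, a replicate block and leaving out each array. The series matrix held the same values as the annotated table (largest difference 0.0), and 0 columns of per-sample values were left out. Some genes that enter the counts are not reported here by name.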

Additional observations from a re-analysis of the deposited data

How the results depend on the processing

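The direction of the family median held in every alternative, with a median between 0.060 and 0.17, but the counts did not. Of the 83 genes, 79 differed above 0 with the deposited values and 65 with median centring. Ribosomal protein genes called (11 with the deposited values, 4 large- and 7 small-subunit) numbered 1, 1 and 0 with median centring, 28, 10 and 18 with quantile normalization, 32, 13 and 19 with cyclic loess, and 23, 9 and 14 with a variance trend and robust estimation. With genes above the median signal they numbered 17 in all and 11 for the small subunit, and with the dimmest probe set of each gene, an alternative chosen after seeing the data, 3, 1 and 2. Leaving out 1 array gave 1 to 10 in all, 1 to 4 large and 0 to 6 small. Leaving out the paralogs gave 10. With array weights 10 of the 83 were called, 4 large- and 6 small-subunit, beside 13.1% of all genes called higher. With the mean of all probe sets they numbered 12, 5 and 7, beside 8.9% of all genes. Over all genes, 1995 were called higher and 2580 lower (4575). The share of all genes called higher was 3.79% with median centring, 6.19% with quantile normalization and 5.26% with cyclic loess. It was 8.96% with a variance trend and robust estimation, 8.68% above the median signal and 8.3% with the dimmest probe set. The higher calls numbered 836 with median centring, 1161 with cyclic loess and 958 above the median signal, the lower calls 1696 with quantile normalization. Without 1 array all calls ranged from 2481 to 4287, higher calls from 814 to 2073 and lower calls from 1600 to 2608. The 36 calls of the translation lists became 15 to 38. The cyclic loess median was 0.17. The cause of these changes was not tested, except that 5 arrays leave fewer degrees of freedom and the filter tests fewer genes.

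Signs turned for 10 of the genes named by the rule, near 0 or in a dimmer probe set. Of genes named outside it, Rps2 ranged from -0.060 to 0.048 and Rpl29 from -0.015 to 0.093 over the alternatives. Median centring gave Rpl12 -0.014, Rpl3l -0.017, Rplp0 -0.048, Rps27l -0.032 and Rps6 -0.025. Cyclic loess gave Rpl22 0.058, Rpl39l -0.016 and Rpl3l -0.064, and quantile normalization 0.086, -0.020 and -0.056. Array weights gave Rplp0 -0.020. The dimmest probe set gave Rps21 -0.031, Rps6 -0.011, Rpsa -0.0083 and Rragc 0.20. Leaving out 1 array gave Rpl22 from -0.035 to 0.033, Rpl39l from -0.0094 to 0.11, Rpl3l from -0.0060 to 0.067, Rplp0 from -0.031 to 0.024 and Rps27l from -0.041 to 0.049.

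A replicate block gave 13 calls, 5 large- and 8 small-subunit, beside 11.2% of all genes called higher. Deviations of same-numbered arrays correlated at 0.113, 0.076 and 0.096, so by the rule used the numbers do not pair the samples; each array correlated best with its own number, which is a hint from the data only. The series matrix was not run separately, being identical. Dim probe sets, at or under the negative controls, limit the values of Rps4l, Rpl10l, Rpl3l and Rpl39l.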
